A study of Rattus norvegicus with 8 samples.

Results

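Fibronectin (Fn1) and 6 further genes for proteins of the extracellular matrix, thrombospondin 1 (Thbs1), versican (Vcan), extracellular matrix protein 1 (Ecm1), transglutaminase 2 (Tgm2), proteoglycan 4 (Prg4) and osteonectin (Sparc), were followed in rat peritoneal macrophages. They are 7 of the 23487 genes in the count table and were found by their symbols. All 7 were listed once and passed the filter on low counts. The genes were selected on results of the same comparison of CNT-7 with CNT-T, so their levels in both groups are a description. No p-value is given for them, and their side of the threshold in the fit across all genes is stated without support being drawn from it.

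The macrophages came from female Wistar rats, 8 weeks old, that had received 2 mg of multi-walled carbon nanotubes into the peritoneal cavity. One group received MWCNT-XNRI-7, the needle-like and mesotheliomagenic CNT-7 (rats 3, 5, 10 and 11). The other received the tangled, non-mesotheliomagenic CNT-T (rats 1, 2, 12 and 13). At day 15 the peritoneal macrophages of each rat were sorted by flow cytometry as CD11b/c high and His48 dim cells and sequenced as poly(A) RNA, so each group held 4 separate animals. Both groups carried nanotubes, and untreated rats were not analysed here.

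Between 27195157 and 33732981 counts per rat were available, so that 3 counts were worth at most 0.109 counts per 1000000 (CPM). All 8 macrophage markers examined were tested and present in every rat, with a summed level of 15233 to 22405 CPM in CNT-7 rats and 23712 to 33950 CPM in CNT-T rats. Lyz2 (lysozyme) made up at least 80.0% of that sum. Of the 8, Cd14 and Gata6 were significantly higher after CNT-7 and Csf1r, Cd68, Adgre1 and Fcgr1a lower. Summed T cell markers were 0.579 to 4.32 CPM in CNT-7 rats and 0.0716 to 0.494 CPM in CNT-T rats, and B cell markers 0.164 to 2.65 and 0.148 to 0.456 CPM. Eosinophil markers were 0.181 to 9.33 and 0.107 to 0.358 CPM, with Epx and Prg3 at 0 in all rats, and mast cell markers 0.657 to 1.77 and 0.0295 to 2.37 CPM. Endothelial markers, nearly all Esam and Tek, were 54.3 to 71.5 and 76.1 to 100.3 CPM. Of 12124 genes tested, 3383 (27.9%) had an edgeR adjusted p-value under 0.10 and are called significant here. Of all genes tested, 13.9% were significantly higher and 14% significantly lower after CNT-7, and in 24.9% the levels of the groups did not overlap.

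The matrix is the protein and sugar network around cells. Fibronectin is a large glycoprotein that cells assemble into fibrils and grip through integrins. Thrombospondin 1, osteonectin and extracellular matrix protein 1 are matricellular proteins, which tune adhesion and growth factor signals more than they bear load. Versican and proteoglycan 4 (lubricin) are proteoglycans, the first a partner of hyaluronan and the second a lubricant of joint and serosal surfaces. Tissue transglutaminase (Tgm2) cross-links proteins, fibronectin among its substrates, and also binds fibronectin at the cell surface. Macrophages secrete several of these proteins, and resident peritoneal macrophages are a known source of fibronectin.

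The promoters of Ecm1, Sparc and Thbs1 are shown because Ecm1 and Sparc were higher, and Thbs1 lower, in the mean of the CNT-7 rats. They are the 250 bases upstream of the annotated start in RefSeq (build GRCr8, which is not the Rnor_6.0 assembly behind the counts), read 5′ to 3′ on the gene's strand. Ecm1 lies on the minus strand with its upstream bases at chr2:185981607-185981856, Sparc on the minus strand at chr10:40038817-40039066 and Thbs1 on the plus strand at chr3:125510000-125510249. Capitals mark matches to 4 short motifs searched on both strands, namely the AP-1 site TGANTCA, the GC box GGGCGG, the TATA box TATAAA and the cyclic AMP response element TGACGTCA. No matches overlapped.
Ecm1: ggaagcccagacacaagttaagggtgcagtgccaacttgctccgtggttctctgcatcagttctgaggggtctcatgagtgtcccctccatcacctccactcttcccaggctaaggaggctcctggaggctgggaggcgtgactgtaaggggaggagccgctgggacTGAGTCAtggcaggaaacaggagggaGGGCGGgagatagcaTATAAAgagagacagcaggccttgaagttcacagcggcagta
Sparc: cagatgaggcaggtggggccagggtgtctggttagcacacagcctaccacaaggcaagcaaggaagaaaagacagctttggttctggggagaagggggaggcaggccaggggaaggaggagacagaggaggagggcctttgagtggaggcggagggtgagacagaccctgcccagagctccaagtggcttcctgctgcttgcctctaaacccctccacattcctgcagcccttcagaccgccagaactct
Thbs1: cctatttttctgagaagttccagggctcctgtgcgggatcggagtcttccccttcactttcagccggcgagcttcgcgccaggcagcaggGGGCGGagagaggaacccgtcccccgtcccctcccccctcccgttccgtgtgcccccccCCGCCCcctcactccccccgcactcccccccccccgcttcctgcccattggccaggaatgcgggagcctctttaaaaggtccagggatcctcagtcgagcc

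The Ecm1 promoter held an AP-1 site, TGAGTCA, beginning at position -83 from the start, a GC box at -57 and a TATA box at -42. The Thbs1 promoter held 2 GC boxes, at positions -160 and -101. None of the 4 motifs was matched in the Sparc promoter. Over the same window with 50 further bases downstream, 7.33% of all 33469 RefSeq promoters held the AP-1 motif, 33.1% the GC box, 14.2% the TATA box and 1.83% the cyclic AMP response element. Of the other members, Vcan held 1 GC box in each of its 2 entries and Prg4 held 1 TATA box on the opposite strand, at position -25. In all, 5 of the 7 genes were matched to this table, and Fn1 and Tgm2 were not. These matches are a description of the sequence.

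Fn1 had more counts than any other gene in every library, and its level differed little between the groups. Counts and CPM were not corrected for transcript length, so this rank is one of counts. Its level was 41507, 47107, 51888 and 46119 CPM in CNT-7 rats 3, 5, 10 and 11, and 46969, 39862, 45520 and 38861 CPM in CNT-T rats 1, 2, 12 and 13. The groups overlapped, and the highest of the 8 rats was 1.34 times the lowest. The means were 46655 ± 4257 CPM (SD, n = 4) in CNT-7 rats and 42803 ± 4038 CPM (SD, n = 4) in CNT-T rats. The log2 fold change, positive where CNT-7 was higher, was 0.12 (standard error 0.12), and 67.2% of all genes tested had a lower one. Because Fn1 alone took 3.99% to 5.07% of all counts, the fit was repeated with library sizes taken without the 7 genes, and no gene of the 7 changed its direction or its side of the threshold.

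**Figure D1:**
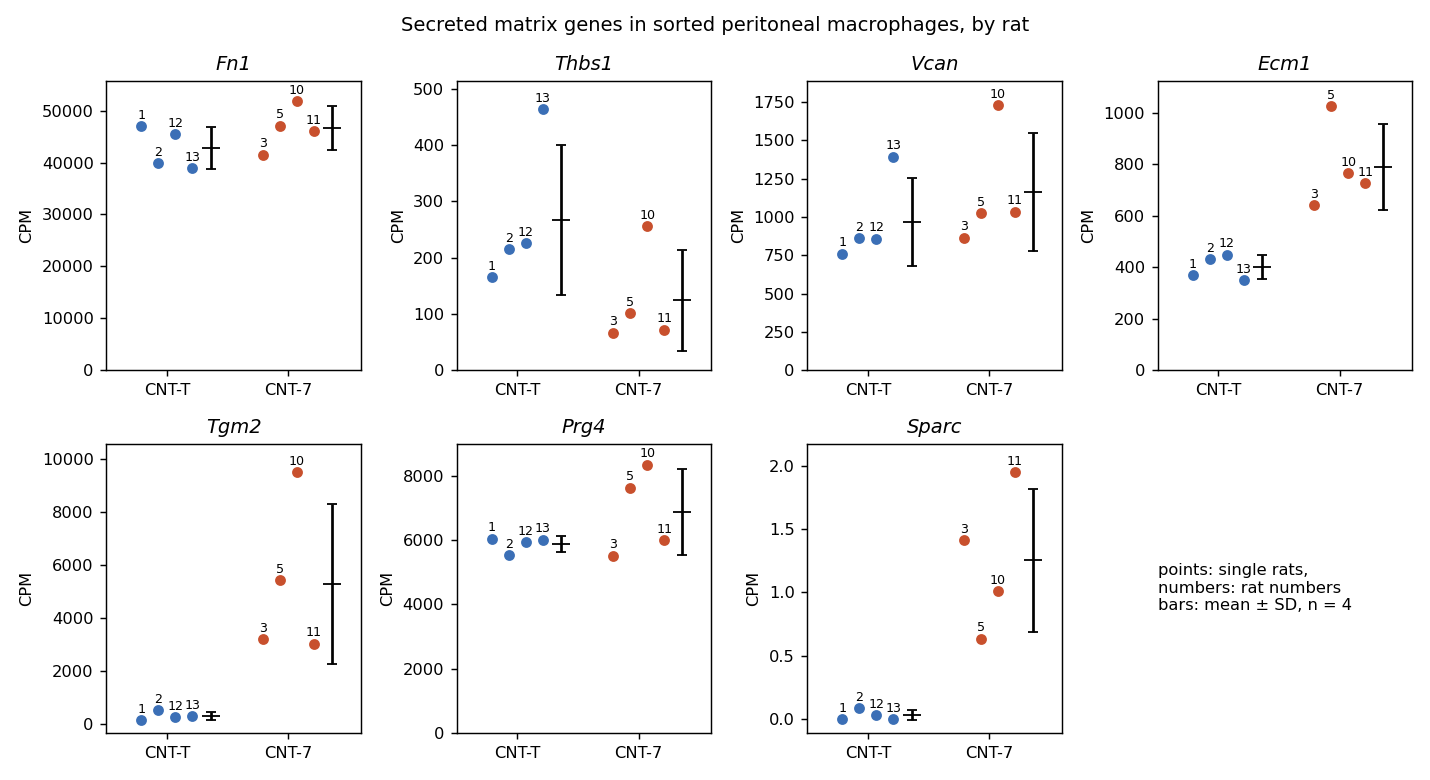
Level of each of the 7 genes in CPM (linear axes with a separate scale per gene) in the 4 CNT-T rats (blue) and the 4 CNT-7 rats (orange), with rat numbers beside the points and the mean ± SD as a bar. Ecm1, Tgm2 and Sparc had no overlap between the groups, whereas Fn1, Thbs1, Vcan and Prg4 overlapped.

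Tgm2, the cross-linking enzyme, had the widest gap between the groups apart from Sparc, which had few counts. It was at 3214, 5432, 9511 and 3043 CPM in CNT-7 rats 3, 5, 10 and 11, and at 149, 530.1, 273 and 300.5 CPM in CNT-T rats 1, 2, 12 and 13. Every CNT-7 rat was above every CNT-T rat, although the highest rat was 3.13 times the lowest after CNT-7 and 3.56 times the lowest after CNT-T. The mean was 5299.9 ± 3011 CPM (SD, n = 4) against 313 ± 159 CPM (SD, n = 4), a 16.9-fold difference of the means. The log2 fold change was 4.08 (standard error 0.49), and 99.6% of all genes tested had a lower one. The transcript made up 0.307% to 0.930% of all counts after CNT-7 and 0.0145% to 0.0532% after CNT-T. Leaving out single rats moved the log2 fold change between 3.64 and 4.46.

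Ecm1, whose product binds other matrix proteins including fibronectin and perlecan, was higher after CNT-7 by a smaller and more even margin. Its level was 641, 1026, 765 and 727 CPM in CNT-7 rats 3, 5, 10 and 11, and 369, 432, 449 and 351 CPM in CNT-T rats 1, 2, 12 and 13. The groups did not overlap, with rat 5 standing above the rest. That rat also had the highest summed T cell (4.32 CPM) and B cell (2.65 CPM) markers of the 8 rats, and the part of these cells in Ecm1 was not tested. The means were 789.9 ± 166 CPM (SD, n = 4) and 400.5 ± 47.3 CPM (SD, n = 4), a 1.97-fold difference. The log2 fold change was 0.98 (standard error 0.15), between 0.83 and 1.07 with each rat left out, and 94.9% of all genes tested had a lower one.

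Sparc, a calcium- and collagen-binding glycoprotein made mainly by fibroblasts and other mesenchymal cells, was close to the limit of detection. It had 43, 19, 28 and 54 counts in CNT-7 rats 3, 5, 10 and 11, and 0, 3, 1 and 0 counts in CNT-T rats 1, 2, 12 and 13. This is 0.64 to 1.95 CPM in CNT-7 rats and at most 0.0886 CPM in CNT-T rats, where every rat lay at or below 3 counts. Summed over the group, 144 counts stood against 4, a ratio of 38.2 at the observed depth. The exact binomial 95% interval of that ratio was 14.6 to 142 and covers counting error alone. The fitted log2 fold change of 5.11 (standard error 0.69) depends on the prior count and on a handful of reads, and it reached 6.34 without CNT-T rat 2.

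Because the sorted cells could hold other peritoneal cells, Sparc was set beside markers of fibroblasts and mesothelial cells, the lining cells of the cavity. The 7 fibroblast markers (Col1a1, Col1a2, Col3a1, Dcn, Lum, Pdgfra and Pdgfrb) were all below the filter on low counts, and none was at 0 in all rats. They summed to 0.722 to 1.71 CPM in CNT-7 rats and 0.163 to 0.857 CPM in CNT-T rats. Within this sum the markers differed. Col1a1 was at 0.0362 to 0.435 CPM and Dcn at 0.0328 to 0.144 CPM in CNT-7 rats. Both were at 0 in every CNT-T rat, as Sparc was or nearly was, but had at most 13 and 4 counts in any rat. Pdgfra and the remaining fibroblast markers overlapped between the groups. The 9 mesothelial markers were also below the filter and summed to 0.325 to 1.0 CPM against 0.179 to 0.461 CPM, with Upk3b and Wt1 at 0 in all 8 rats. Among the CNT-7 rats, rat 5 had the highest sum of both lists and the lowest Sparc level. The part of these cells in the Sparc reads was not tested. In bulk samples such as these, fewer cells of a type and less RNA per cell cannot be told apart.

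**Figure D2:**
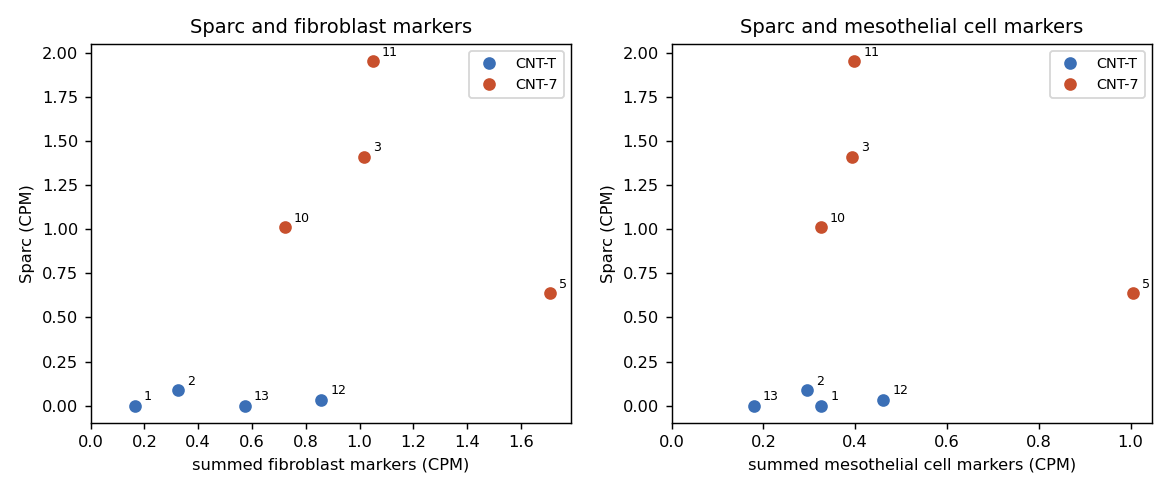
Sparc level (vertical axis, CPM) against the summed level of 7 fibroblast markers (left) or 9 mesothelial cell markers (right, both in CPM), 1 point per rat with its number. The CNT-T rats lie at 0 to 0.0886 CPM of Sparc over the whole range of their marker sums. CNT-7 rat 5 has the highest marker sums but the lowest Sparc level of its group. Within the fibroblast sum, Col1a1 and Dcn were at 0 in every CNT-T rat and present in every CNT-7 rat.

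Thbs1 was the single member with a lower mean after CNT-7, and it varied strongly between rats of one group. Its level was 66.8, 102, 256 and 72.0 CPM in CNT-7 rats 3, 5, 10 and 11, and 166, 215, 226 and 464 CPM in CNT-T rats 1, 2, 12 and 13. Rats 3, 5 and 11 lay below every CNT-T rat, whereas rat 10 lay above 3 of the 4, so the groups overlapped. The means were 124 ± 89.2 CPM (SD, n = 4) and 268 ± 133 CPM (SD, n = 4), and the log2 fold change was -1.11 (standard error 0.46). Only 3.34% of all genes tested had a lower fold change. The value moved with single rats, to -1.74 without CNT-7 rat 10 and to -0.71 without CNT-T rat 13. Of the alternatives run, the gene lay past the threshold without CNT-7 rat 10 and with the range of rat numbers as a block (log2 fold change -1.12).

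Thbs1 is also a product of platelets, and therefore 10 platelet and megakaryocyte markers were examined beside it. Their summed level was 185 to 414 CPM in CNT-7 rats and 469.7 to 722 CPM in CNT-T rats, of which Pf4 made up at least 98.9%. Pf4 alone was 290.0 ± 96.8 CPM (SD, n = 4) in CNT-7 rats and 571 ± 108 CPM (SD, n = 4) in CNT-T rats (log2 fold change -0.98, edgeR adjusted p = 0.015). The 9 remaining markers summed to 1.62 to 2.92 CPM against 2.12 to 3.46 CPM, and Gp9, Gp1ba and Gp1bb were at 0 in all rats. CNT-7 rat 10, with the highest Thbs1 level of its group, had the lowest platelet marker sum. The part of platelets in the Thbs1 level was not tested.

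Of the proteoglycans, Vcan and Prg4 had slightly higher means after CNT-7 and overlapping groups. Vcan was at 866, 1026, 1728 and 1035 CPM in CNT-7 rats 3, 5, 10 and 11, and at 761, 863, 858 and 1395 CPM in CNT-T rats 1, 2, 12 and 13. A single rat stood high in each group, rat 10 after CNT-7 and rat 13 after CNT-T. The means were 1164 ± 384 CPM (SD, n = 4) and 969 ± 288 CPM (SD, n = 4), with a log2 fold change of 0.26 (standard error 0.25). It moved from 0.011 without CNT-7 rat 10 to 0.49 without CNT-T rat 13.

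Prg4 was even among the CNT-T rats and spread after CNT-7. It was at 5518, 7635, 8349.9 and 6012 CPM in CNT-7 rats 3, 5, 10 and 11, and at 6045, 5531, 5942 and 6018 CPM in CNT-T rats 1, 2, 12 and 13. Rats 5 and 10 lay above all CNT-T rats, whereas rat 3 lay below all 4 of them and rat 11 below 2. The means were 6879 ± 1334 CPM (SD, n = 4) and 5884 ± 239 CPM (SD, n = 4), with a log2 fold change of 0.23 (standard error 0.13).

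Across the 7 genes, 3 passed the threshold and did not overlap between the groups (Ecm1, Tgm2 and Sparc, all higher after CNT-7). Since the genes were chosen on results of this comparison, nothing is read from that count beside the 27.9% of all genes tested. For all genes tested, the log2 fold change had a median of 0.0083, a 10th percentile of -0.51 and a 90th percentile of 0.53. Fn1, Vcan and Prg4 lay inside those limits, Thbs1 below and Ecm1, Tgm2 and Sparc above. Together the 7 genes took 5.22% to 7.09% of all counts after CNT-7 and 4.76% to 5.34% after CNT-T. Without Fn1 the shares were 1.04% to 2.02% and 0.730% to 0.876%.

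**Figure D3:**
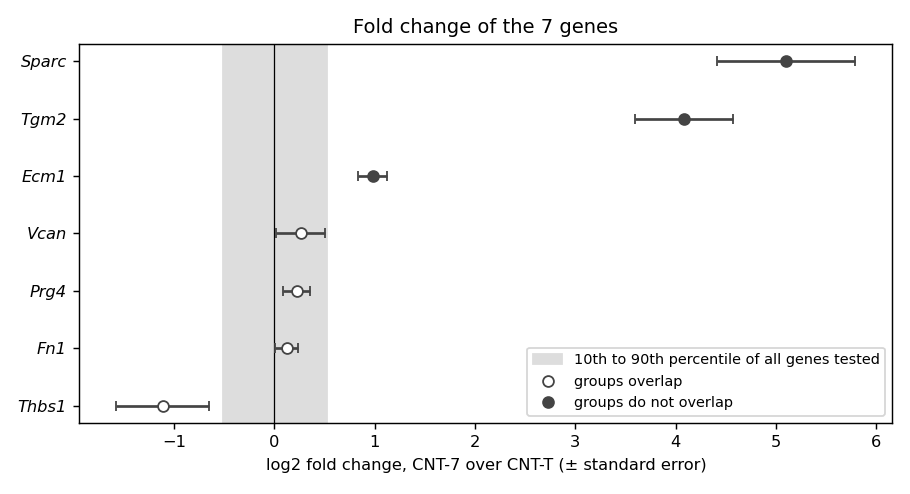
Log2 ratio of CNT-7 to CNT-T (horizontal axis, bars ± standard error) of the 7 genes, with filled points where the 4 rats of each group do not overlap and a grey band from the 10th to the 90th percentile of all genes tested (-0.51 to 0.53). Fn1, Prg4 and Vcan lie within the band, Thbs1 lies below it, and Ecm1, Tgm2 and Sparc lie above it.

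The members also differed in how far rats of one group lay apart. The edgeR biological coefficient of variation, the estimated spread between rats of a group beyond counting error, was 11.6% for Fn1, 14.2% for Prg4, 15.7% for Ecm1 and 24.8% for Vcan. It was 42.0% for Tgm2 and 44.5% for Thbs1, against a median of 13.4% over all genes tested. For Fn1 36.7% of genes had a lower value, and for Thbs1 96.3%. Sparc had 40.3%, estimated from few counts.

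CNT-7 rat 10 had the highest level of its group in 5 members (Fn1, Thbs1, Vcan, Tgm2 and Prg4), and CNT-7 rat 3 the lowest in 5 (Fn1, Thbs1, Vcan, Ecm1 and Prg4). On the log2 scale, rat 10 lay above the median of the other 3 CNT-7 rats by 1.83 for Thbs1, 1.57 for Tgm2, 0.75 for Vcan, 0.47 for Prg4 and 0.17 for Fn1. Over all genes tested, the 10th and 90th percentiles of this difference in rat 10 were -0.53 and 0.36. Ecm1 in rat 10 differed by 0.073, and rat 5 was the highest for that gene. Sparc, which had few counts, lay below that median in rat 10, by -0.46. Among the CNT-T rats, rat 13 lay above the median of the others by 1.11 for Thbs1 and 0.70 for Vcan, with differences of -0.23 for Fn1 and -0.30 for Ecm1. What sets these rats apart was not tested.

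**Figure D4:**
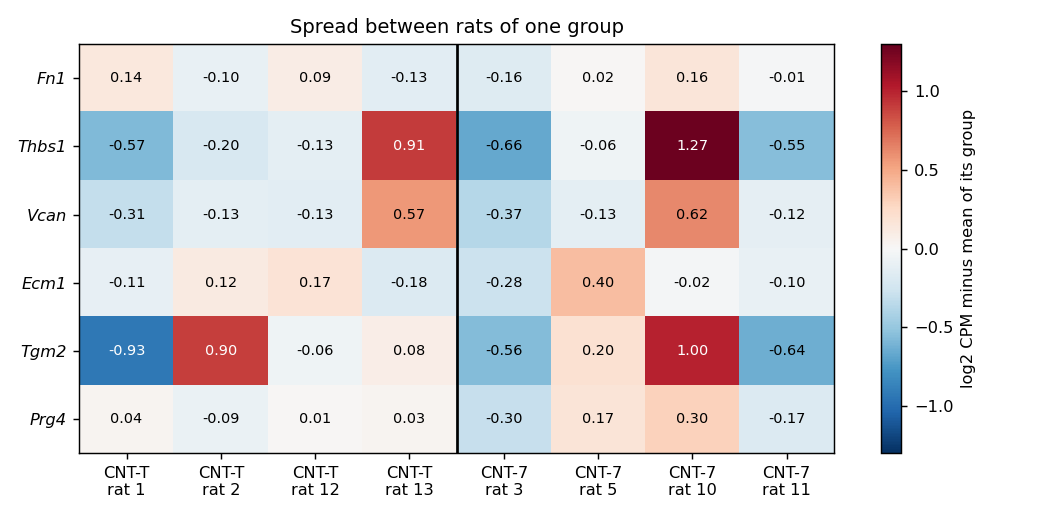
Log2 CPM of 6 members minus the mean of the same group, for each of the 4 CNT-T and 4 CNT-7 rats (colour scale and printed values, Sparc left out for its low counts). Thbs1 and Vcan stand highest in CNT-T rat 13 (0.91 and 0.57) and in CNT-7 rat 10 (1.27 and 0.62), while Fn1 stays within 0.16 of its group mean in every rat.

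To see which genes followed the same course, the root mean square difference of mean-centred log2 CPM over the 8 rats was taken between each member and 8358 genes with a mean of at least 10 CPM. It is a description over shared libraries, in which a value of 0 means identical courses. The nearest genes were picked by this measure, so the high and low rats they share with a member are part of the choice. Tgm2 was followed most closely by Cx3cr1, the receptor for fractalkine, with a difference of 0.26 against a median of 2.14 over the 8358 genes. That median is close to the root mean square of Tgm2's own course, also 2.14, and so mostly reflects how far Tgm2 itself moved. The same holds for the medians of Vcan, Thbs1 and Ecm1 below, whose own values were 0.38, 0.91 and 0.52. The log2 fold change of Cx3cr1 was 4.12, near that of Tgm2. Cx3cr1 was at 41.3, 76.4, 144 and 40.0 CPM in CNT-7 rats 3, 5, 10 and 11, and at 3.29, 6.77, 3.39 and 3.79 CPM in CNT-T rats 1, 2, 12 and 13. Both genes had the same order of the CNT-7 rats (10, 5, 3 and 11), and both were highest in rat 2 among the CNT-T rats. The next was Angptl8, an angiopoietin-like secreted protein, at 0.50.

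Vcan was followed by Hif1a, the oxygen-regulated transcription factor subunit, and by Slc23a2, a vitamin C transporter, both with a difference of 0.13 against a median of 0.41. Hif1a was at 308, 409, 573 and 358 CPM in CNT-7 rats 3, 5, 10 and 11, and at 309.6, 295, 309.8 and 426 CPM in CNT-T rats 1, 2, 12 and 13. Like Vcan, it was highest in rat 10 and in rat 13 of its group. Thbs1 was followed by Akr1b8, an aldo-keto reductase, at 0.34 and by Lhfpl2 at 0.48, with a median of 0.92. Akr1b8 was likewise highest in rat 10 (158 CPM) of the CNT-7 rats and in rat 13 (402 CPM) of the CNT-T rats.

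Ecm1 was followed by Rhob, a small GTPase, at 0.065 and Zc3h12a, an RNA-degrading regulator of inflammation, at 0.12, with a median of 0.54. Rhob was at 218 to 339 CPM in CNT-7 rats and 114 to 145 CPM in CNT-T rats, with rat 5 the highest. Fn1, which hardly varied, was followed by Selenoo at 0.046 and Ramac at 0.052 (median 0.20), and Prg4 by Zbtb21 at 0.059 and Gpatch2 at 0.075 (median 0.25). For Sparc the nearest genes were LOC690045 at 0.51 and Igf1, insulin-like growth factor 1, at 0.57. With a prior count of 0.5 in place of 2 they were Fcrl2 at 0.79 and Cst7 at 0.83, so the choice for Sparc depends on how low counts are treated. The 12 nearest genes of the other members were the same with both prior counts.

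The members were then placed among 6 lists of other matrix genes. Of 197 genes listed, 188 were in the table and 88 were tested. Of those, 42 (47.7%) were significant, 30 higher and 12 lower after CNT-7, beside 27.9% of all genes tested. The median log2 fold change was 0.15 for the 88 genes and 0.0083 for all genes. Since the lists were chosen with earlier results of these data known, nothing is read from these shares and medians. The 9 genes Tnxb, Lama3, Hspg2, Col6a3, Crtap, Pcolce2, Itgb5, Cd36 and Mmp25 were not analysed here.

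Among 25 matrix glycoproteins tested, 7 were significantly higher and 5 lower (48% significant, beside 27.9% of all genes tested). Mfge8, a bridge between dying cells and integrins, rose from 3.48 ± 1.58 to 31.2 ± 13.5 CPM (SD, n = 4, log2 fold change 3.15, edgeR adjusted p = 0.0014). Ccn1, a matricellular integrin ligand, was 4.36 ± 0.85 CPM in CNT-7 rats and 1.80 ± 0.57 CPM in CNT-T rats (log2 fold change 1.27, edgeR adjusted p = 0.0074). Lamb2, a laminin chain of basement membranes, fell from 10.4 ± 0.87 to 4.66 ± 0.93 CPM (log2 fold change -1.15, edgeR adjusted p = 0.0012). Ecm2 was lower too (log2 fold change -0.82, edgeR adjusted p = 0.039) but missed the threshold without CNT-T rat 12. Thbs3, the thrombospondin of the list that was tested, named here after its values were seen, was higher after CNT-7 (23.6 ± 1.27 against 16.0 ± 3.61 CPM, log2 fold change 0.56, edgeR adjusted p = 0.023). Thbs2 and Thbs4 had no count in any rat.

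Of 10 proteoglycan and hyaluronan genes tested, 2 (20%) were significant, both lower after CNT-7, below the 27.9% of all genes tested. Bgn (biglycan) fell by 0.95 on the log2 scale (edgeR adjusted p = 0.053) and the hyaluronidase Hyal1 by 0.53 (edgeR adjusted p = 0.065), and each missed the threshold in 5 of the 8 fits that left out 1 rat. Of 24 collagen genes in the table, 21 were below the filter on low counts. The 3 tested, Col4a3, Col4a4 and Col5a3, had log2 fold changes of -0.54, -0.45 and 0.63 and overlapping groups. With edgeR 0 of the 3 were significant, 0 had an unadjusted p-value under 0.05, and 0 were significant with DESeq2.

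Of 13 genes for cross-linking and collagen processing, 4 were significantly higher and 1 lower (38.5% significant, beside 27.9% of all genes tested). Tgm1, the transglutaminase best known from skin, was low but rose from 0.51 ± 0.27 to 2.59 ± 0.67 CPM (SD, n = 4, log2 fold change 2.35, edgeR adjusted p = 0.0034). F13a1, the transglutaminase subunit of clotting factor XIII and a common macrophage transcript, was the 1 that fell. It was at 271, 218, 140.0 and 314 CPM in CNT-7 rats 3, 5, 10 and 11, and at 1122, 1072, 858 and 1128 CPM in CNT-T rats 1, 2, 12 and 13. CNT-7 rat 10 thus had the highest Tgm2 and the lowest F13a1 level of its group. P4ha1, a collagen prolyl hydroxylase, was higher by 0.46 on the log2 scale (edgeR adjusted p = 0.083), a call lost in 5 of the 8 fits that left out 1 rat.

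Of 21 receptors for these proteins, 10 were significantly higher and 2 lower (57.1% significant, beside 27.9% of all genes tested). Sdc1 (syndecan 1), a heparan sulphate proteoglycan of the cell surface that binds fibronectin and thrombospondin 1, had the largest log2 fold change of the 21. Its level was 411, 695, 921 and 402 CPM in CNT-7 rats 3, 5, 10 and 11, and 15.1, 17.1, 12 and 21.5 CPM in CNT-T rats 1, 2, 12 and 13. The log2 fold change was 5.21 (standard error 0.33, edgeR adjusted p = 5.2e-05). Itgb3, the beta chain of the vitronectin receptor, rose from 7.01 ± 0.94 to 53.9 ± 26.9 CPM (log2 fold change 2.94, edgeR adjusted p = 0.00039). In both, as in Tgm2, rats 10 and 5 were the highest of the CNT-7 rats.

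Both significantly lower receptors were integrin alpha chains. Itga4, which binds an alternatively spliced segment of fibronectin, fell from 122 ± 8.20 to 78.7 ± 10.7 CPM (SD, n = 4, log2 fold change -0.63, edgeR adjusted p = 0.0026). Itga9 was lower as well (log2 fold change -1.18, edgeR adjusted p = 0.0040). The chains of the classical fibronectin receptor were chosen after their values were seen. Itga5 was 229 ± 22.5 CPM in CNT-7 rats and 140.1 ± 41.8 CPM in CNT-T rats (log2 fold change 0.71, edgeR adjusted p = 0.026). Its partner Itgb1 was 1192 ± 80.2 and 1109 ± 75.3 CPM (log2 fold change 0.10, edgeR adjusted p = 0.42), and Itgav had a log2 fold change of 0.15 (edgeR adjusted p = 0.14).

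Of 16 matrix-degrading proteases and inhibitors, 9 were significantly higher and 2 lower (68.8% significant, beside 27.9% of all genes tested). Mmp12, the macrophage elastase, was 2.44 ± 1.68 CPM (SD, n = 4) after CNT-7 and had 2, 1, 2 and 6 counts in CNT-T rats 1, 2, 12 and 13 (edgeR adjusted p = 0.0017). Mmp7 (matrilysin) was 0.76 to 7.72 CPM after CNT-7 and had at most 1 count in any CNT-T rat (edgeR adjusted p = 0.0026). Mmp9, a gelatinase that neutrophils also carry, fell from 8.88 ± 8.48 to 0.78 ± 0.20 CPM (log2 fold change -3.50, edgeR adjusted p = 0.0041), with CNT-T rat 1 at 21.4 CPM. Without that rat the log2 fold change was -2.58. The 8 neutrophil markers summed to 31.9 to 61.5 CPM in CNT-7 rats and 25.1 to 68.0 CPM in CNT-T rats, highest in CNT-T rat 1, with Mpo at 0 in all rats and Csf3r at least 72.1% of the sum. Of the 4 markers tested, S100a8 was the 1 that was significant. It was lower after CNT-7 (log2 fold change -1.46, edgeR adjusted p = 0.016) and was also highest in CNT-T rat 1 (9.03 CPM). The other tested markers were not significant and went both ways. Their log2 fold changes were 1.23 for S100a9, 0.39 for Csf3r and -0.68 for Elane. S100a9 was highest in CNT-7 rat 5 (3.68 CPM). The sort gate was set to leave neutrophils out, and their part in the Mmp9 level was not tested. Ctss (cathepsin S) fell by 0.30 on the log2 scale (edgeR adjusted p = 0.088) and missed the threshold in 6 of the 8 fits that left out 1 rat.

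**Figure D5:**
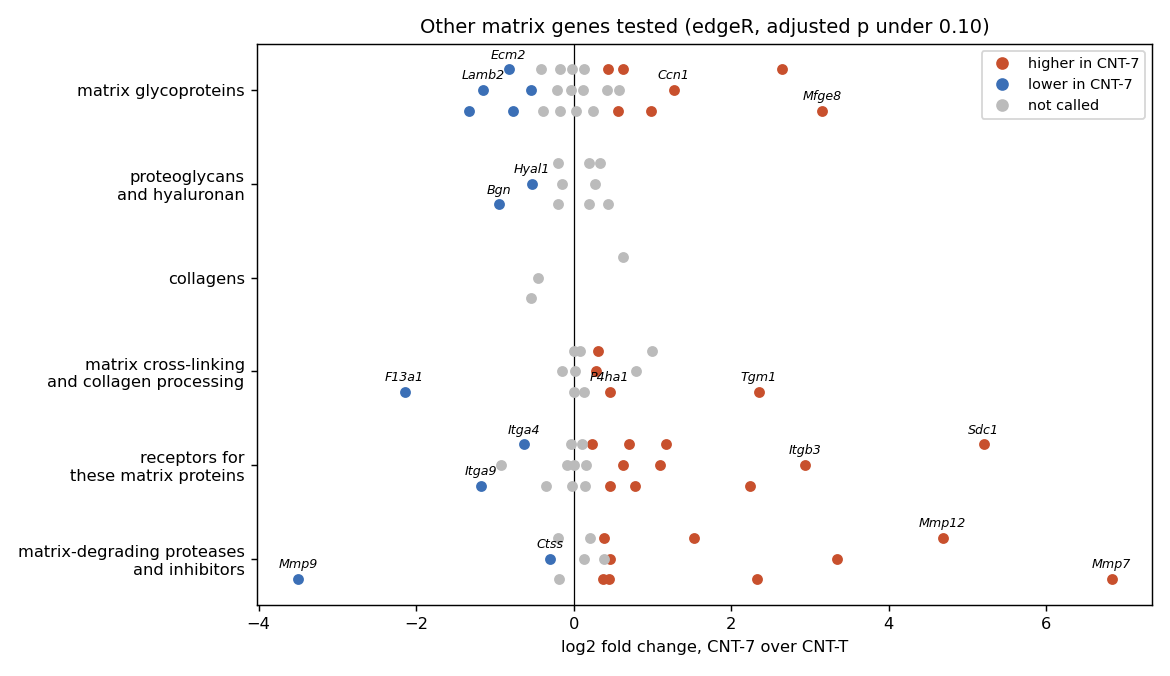
Log2 ratio of CNT-7 to CNT-T (horizontal axis) of the 88 genes tested in 6 lists of other matrix genes, 1 point per gene, with genes significantly higher in orange, lower in blue and the rest in grey (edgeR, adjusted p-value under 0.10). Of them 30 were higher and 12 lower, and the fitted values of Mmp7 and Mmp12, which had few counts after CNT-T, depend on the prior count.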

How the data were processed

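Sorted peritoneal macrophages of 4 rats given CNT-7 and 4 given CNT-T were compared, with groups and rat numbers taken from the labels. The authors quantified the reads with Salmon on the Ensembl rat cDNA set (Rnor_6.0, ARMOR workflow, tximeta import) and deposited estimated counts per gene, not normalised. These were whole numbers, so rounding changed nothing. The Salmon version is not given in the sources used here.

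R 4.3.3 with edgeR 4.0.16 was used for a quasi-likelihood test of the counts, with TMM factors, filterByExpr (minimum count 10, minimum total 15) and Benjamini-Hochberg adjustment over 12124 genes at 0.10. CPM used TMM-adjusted library sizes. A log2 fold change above 0 means higher in CNT-7, with standard errors from the F statistic. For likeness a prior count of 2 entered log2 CPM. DESeq2 1.42.0, other normalisations, filters and thresholds, the omission of single rats, and a block for the range of rat numbers were alternatives.

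The members and gene lists were chosen with earlier results of these data known. Named genes were the 7 members, 2 nearest genes to each, and, from each list, all significant genes where at most 4 were significant, otherwise the 2 largest rises and falls with a mean of at least 1 CPM. The code was tested on simulated data. Reads had no molecular identifiers, so intervals and floors cover counting error alone. No 2 libraries were copies of each other.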

Additional observations from a re-analysis of the deposited data

Results flagged for a closer look

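In 1 of 14 groups of 4 rats, a single rat lay apart from the others by Dixon's ratio, taken on the CPM scale. Vcan in CNT-T rat 13 was 1395 CPM where the next rat had 863 CPM, and this gap took 0.839 of the whole range of the group. This is above Dixon's 95% critical value for 4 samples, which chance alone exceeds in about 1 in 20 groups.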

How the results depend on the processing

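All 7 genes kept the direction of their log2 fold change under every alternative run. Of the 7, 3 were significant with DESeq2, upper-quartile normalisation, no filter and an adjusted p-value under 0.05, and 3 to 4 with each rat left out. The number was 2 with at least 10 counts in every rat, where Sparc was not tested, and 4 with the range of rat numbers (1 to 5 against 10 to 13) as a block, which added Thbs1 (log2 fold change -1.12). Over all genes 2507 (threshold 0.05) to 3633 (DESeq2) of 12124 were significant. Among all genes it was 3389 of 12124 with upper-quartile normalisation, 3276 of 16667 with no filter and 3359 of 12124 with the block. It was 3123 of 11267 with at least 10 counts in every rat. With each rat left out it was 2578 to 3515 of 12227 to 12284 (1261 to 1743 higher, 1305 to 1772 lower). Since the 7 genes were chosen on this comparison, nothing is read from their counts under these alternatives. Of the other matrix genes 24 to 32 were higher and 8 to 13 lower with each rat left out, of 89 to 91 tested. With no filter 36 of 158 were higher, beside 1652 of all 16667 genes tested, and nothing is read from these counts. At 0.05 Bgn, Hyal1, P4ha1 and Ctss were no longer significant, and P4ha1 and Ctss also missed the threshold with the block. None of the genes named from the matrix lists by rule changed direction. No paired analysis was possible because the groups share no rat numbers. Depth limits Sparc, Mmp7 and Mmp12, whose CNT-T counts lie near or below the floor of 3.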

Other observations

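Beyond the genes named by rule, several cell surface receptors and 1 protease differed between the groups, and they are given here after their values were seen. Sdc4 (syndecan 4), a partner of integrins in adhesion to fibronectin, was 59.6 ± 6.26 CPM (SD, n = 4) in CNT-7 rats and 27.9 ± 4.40 CPM in CNT-T rats (log2 fold change 1.09, edgeR adjusted p = 0.00052). Sdc3 was higher as well (log2 fold change 1.17, edgeR adjusted p = 0.0015). The hyaluronan receptor Cd44 was 2517 ± 259 and 1463 ± 79.3 CPM (log2 fold change 0.78, edgeR adjusted p = 0.00070). Plau, the urokinase that activates plasminogen, was 126 ± 62.8 and 25.1 ± 1.85 CPM (log2 fold change 2.33, edgeR adjusted p = 0.0011).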
